A study of Mus musculus with 7 samples.

Results

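Fth1, Ftl1, Tfrc, Hmox1, Gpx4, Nqo1, Gclm, Txnrd1, Srxn1 and Prdx1 are 10 genes of iron storage and antioxidant defence, taken by name from the 50600 entries of a bulk RNA sequencing table and the 15536 genes of a single-cell table. All 10 were present in both tables. In bulk, all 10 were among the 18088 entries that passed the filter on low counts, and in single cells 6 of the 10 were among the 1491 genes at 1 unique molecular identifier (UMI) per 10000 or more over all cells. The list was drawn up with results of these data already known, so its genes may have been chosen by their values in the contrast of cultures with tissue and across clusters. No threshold was applied, and the values in those comparisons are given as a description of each gene.

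The study set neural stem and progenitor cells (NSPCs) grown in culture beside the tissue they come from, the adult dentate gyrus (DG) of the hippocampus. The 4 NSPC cultures were primary cultures from C57Bl6J mice aged 6 to 8 weeks, 2 from females (F1, F2) and 2 from males (M1, M2), at passages 6 to 15, with about 30000 cells per library. They grew attached to poly-d-lysine and laminin in Neurobasal A with B27 lacking vitamin A, GlutaMAX, and epidermal growth factor and basic fibroblast growth factor at 20 ng/ml each. The 2 whole DG samples were tissue from 1 female (F1) and 1 male (M2) C57Bl6J mouse aged 7 to 9 weeks. The single-cell library mixed equal numbers of cells from 3 cultures, 2 female and 1 male, from mice aged 6 to 9 weeks in the same medium, and the culture of origin is not given for a cell. No transgene, mutation or treatment is named for any group. B27 is a serum-free supplement that supplies transferrin and antioxidant enzymes, and what the medium contributes to the levels below was not tested.

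Cells take up iron bound to transferrin through the transferrin receptor, store it inside the hollow shell of ferritin, and recover it from haem by haem oxygenase. Free ferrous iron reacts with hydrogen peroxide to give radicals that oxidise lipids, and the glutathione and thioredoxin systems remove the peroxides at the expense of NADPH. Control is known at the level of RNA and of transcription: iron regulatory proteins bind stem-loops called iron responsive elements (IREs) in ferritin and transferrin receptor mRNA, and the transcription factor NRF2, held back by KEAP1 and opposed by BACH1, binds antioxidant response elements (AREs) near many antioxidant genes.

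Total counts lay between 9917697 and 11747408 in the cultures and were 16676618 and 17351636 in whole DG. Levels are CPM, counts scaled by TMM library size to a common total, given as mean ± SD over n = 4 cultures and n = 2 whole DG samples, and differences are log2 values of cultures minus whole DG with their standard error (SE). Cultures and tissue were made into libraries with different kits, so kit and group cannot be told apart. Marker transcripts moved with the groups: the summed level of 10 microglial markers was 38.3 to 58.5 CPM in cultures and 382 to 394 CPM in whole DG, with Aif1 and C1qa at 0 counts in every culture, and all 10 were lower. The summed levels were 2.24 to 5.70 against 123 to 130 CPM for 6 endothelial markers, with Cldn5 at 0 in the cultures, and 93.2 to 144 against 1244 to 1530 CPM for 6 oligodendrocyte markers, of which 5 were lower and Cnp was not called (119 against 114 CPM). For 5 astrocyte markers they were 255 to 730 against 2905 to 3341 CPM, with 3 lower, Gja1 not called (180 against 191 CPM) and Aldh1l1 higher (288 against 49.2 CPM). They were 33.6 to 39.4 against 10894 to 11281 CPM for 6 neuronal markers, 0.173 to 0.573 against 160 to 173 CPM for 5 blood markers, and 0.248 to 0.520 against 39.0 to 41.8 CPM for 4 choroid plexus markers. Of 8 NSPC markers 6 were higher in cultures, with sums over all 8 of 3119 to 4190 against 143 to 154 CPM. The 2 lower were Sox2 (6.11 against 36.3 CPM) and Hes5 (1.36 against 8.85 CPM). In bulk samples, fewer cells of a type and less RNA per cell cannot be told apart, and what the mixture of cells contributes to each difference below was not tested.

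Of the 10 genes, 8 were higher in the cultures, 1 was lower and 1 was not called (edgeR quasi-likelihood test, Benjamini-Hochberg adjusted p of 0.05 over all genes tested). Over all genes tested, 77.3% were called, 35.6% higher and 41.7% lower. The libraries of the 2 groups did not overlap for 9 of the 10 genes, against 83.6% of all genes, and for 8 of the 10 the cultures were the higher group, against 38.6%. The median log2 difference was 1.77 over the 10 genes and -0.13 over all genes tested. Since the list was drawn up with this contrast known, these counts describe the list and nothing is read from their excess. With a test for a fold above 2, 5 of the 10 genes were called higher and 0 lower, against 20.3% of all genes called higher and 52.2% called either way. The summed level of the 10 genes was 6436, 7643, 6849 and 8984 CPM in cultures F1, F2, M1 and M2, against 2054 and 2000 CPM in whole DG F1 and M2, so every culture was above both tissue samples, and Fth1, Ftl1 and Prdx1 made up most of it.

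**Figure D1:**
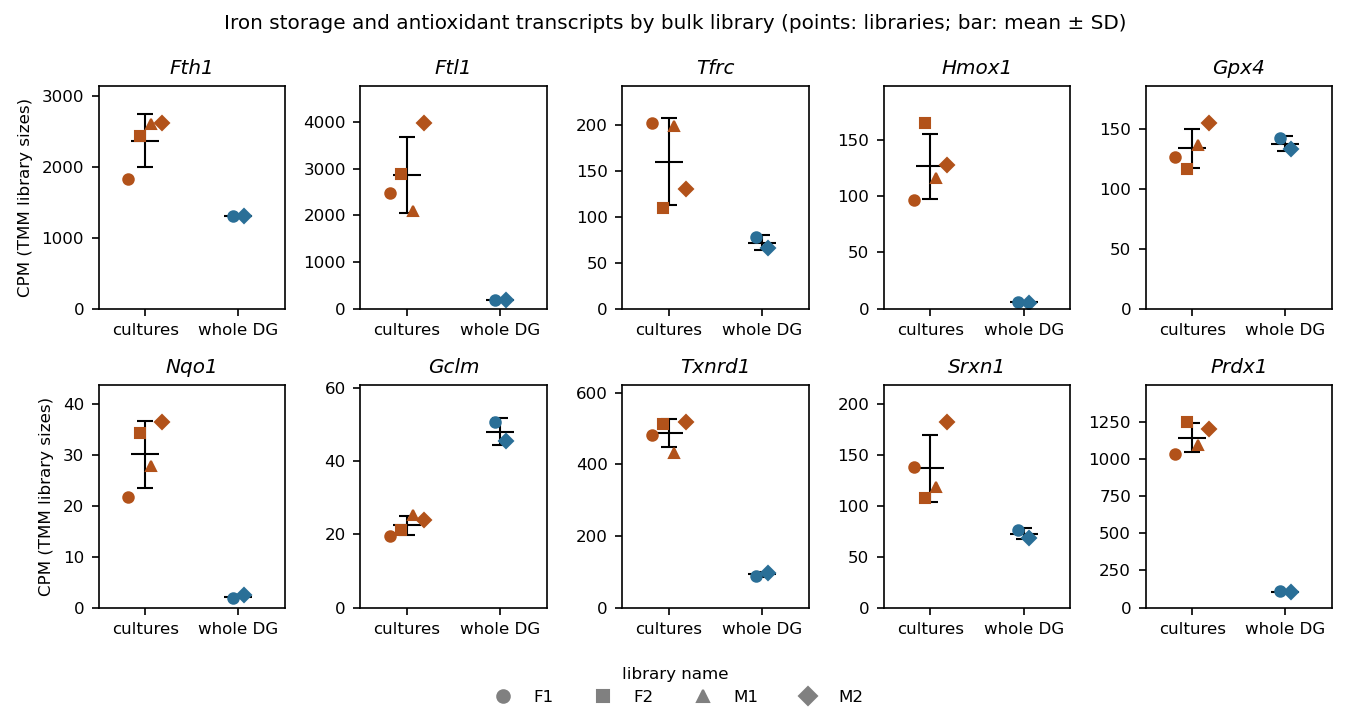
Each panel plots the CPM of 1 gene in the 4 cultures (orange) and the 2 whole DG samples (blue); points are libraries, with their shape giving the library name, and the bar is the mean ± SD. Cultures lie above whole DG in 8 panels, below it for Gclm, and across it for Gpx4, where the means are 134 and 138 CPM.

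Ferritin transcripts made up the largest part of these summed counts. A ferritin shell is built of heavy chains, which oxidise ferrous iron, and light chains, which help it to mineralise. Fth1, the heavy chain gene (GRCm38 chr19:9980598-9985098, plus strand), was at 1831, 2443, 2601 and 2621 CPM in cultures F1, F2, M1 and M2, against 1310 and 1303 CPM in whole DG F1 and M2. All cultures were above both tissue samples, with F1 the lowest of the 4. The means were 2374 ± 371 against 1307 ± 5.24 CPM, a log2 value of 0.86 (SE 0.17, edgeR adjusted p = 0.00204).

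Ftl1, the light chain gene (chr7:45457944-45459884, minus strand), was at 2487, 2885, 2096 and 3986 CPM in the cultures, in the same order, against 192 and 173 CPM in whole DG. The groups were far apart and M2 was the highest culture. The means were 2863 ± 815 against 183 ± 13.6 CPM, a 15.7-fold difference (log2 3.97, SE 0.30, edgeR adjusted p = 6.90e-06). The 2 chains therefore differed in size of change, and the ratio of Fth1 to Ftl1, each per kilobase of exon, was 0.284, 0.327, 0.479 and 0.254 in the cultures against 2.63 and 2.91 in whole DG. Per base of 1 transcript each (1494 and 968 bases) the ratio was 0.477, 0.549, 0.804 and 0.426 in the cultures against 4.42 and 4.88 in whole DG, and without any length it was 0.736, 0.847, 1.24 and 0.658 against 6.82 and 7.53. By either of these lengths the bulk ratio was below 1 in every culture and above 1 in tissue, while M1 was above 1 without a length. Fth1 also has a second annotated start, within chr19:9982396-9982695. A shorter transcript from there would raise the ratio, and its length was not used. In UMIs of single cells the ratio was above 1 in every cluster, so which chain is the more abundant in cultured cells depends on the measure. Ftl1 has 7 sequence-matched copies in the table, which held 5.13% to 5.88% of the counts of Ftl1 and its copies in cultures and 3.12% to 3.76% in whole DG. It also overlaps the annotated genes Gm22133 and Gm10252, and the treatment of strand and of shared reads in the counting was not stated. Fth1 has 1 copy, with at most 0.0443% of the counts in any library, and overlaps no other gene.

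Tfrc encodes transferrin receptor 1, the main route of iron uptake, and lies at chr16:32608920-32632794 on the plus strand. Its levels were 202, 109, 198 and 130 CPM in cultures F1, F2, M1 and M2, against 77.6 and 66.0 CPM in whole DG F1 and M2. The cultures spread widely but stayed above both tissue samples. The means were 160 ± 47.2 against 71.8 ± 8.20 CPM, a log2 value of 1.15 (SE 0.27, edgeR adjusted p = 0.00482, and 0.0487 without whole DG M2).

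These 3 transcripts share the IRE, and its sequence is shown for that reason. Apart from the ARE below, no other shared element was searched for. The search used the letters CNNNNNCAGTGN in 1 GENCODE M21 transcript per gene, on the sense strand only; capitals mark the 6-base loop that the iron regulatory proteins recognise, and T stands for U. In all 6 stretches printed here, all 5 bases on one side of the loop can pair with the 5 on the other (Watson-Crick or G with U). Of 21877 protein-coding genes, 1.24% hold a match with all 5 pairs somewhere in their longest transcript. The ferritin mRNAs each hold 1 in the 5′ UTR, where binding is known to block translation, at chr19:9982732-9982761 (plus strand) for Fth1 and chr7:45459778-45459807 (minus strand) for Ftl1.
Fth1: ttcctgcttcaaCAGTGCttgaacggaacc
Ftl1: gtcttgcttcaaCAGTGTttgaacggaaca
Tfrc holds 5 matches in its 3′ UTR of 2461 bases, where binding is known to stabilise the mRNA, and 4 of them have all 5 pairs. They lie on the plus strand of chromosome 16 at chr16:32631219-32631248, chr16:32631598-32631627, chr16:32631663-32631692 and chr16:32631710-32631739.
Tfrc match 1: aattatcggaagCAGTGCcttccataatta
Tfrc match 2: cattatcgggagCAGTGTcttccataatgc
Tfrc match 4: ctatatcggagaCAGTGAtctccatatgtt
Tfrc match 5: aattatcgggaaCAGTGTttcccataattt
Of the 21877 genes, 1 has 4 or more such matches, and it is Tfrc. The remaining Tfrc match, and the other matches to the letters found in the UTRs of Fth1 (3′), Txnrd1 (5′) and Gclm (3′, 2 of them), have at most 3 of the 5 pairs. A match describes the sequence; whether a protein is bound was not measured. Fth1 and Ftl1 carry near-identical elements, and their transcripts differed between the groups by 0.86 and 3.97 on the log2 scale; RNA counts do not measure translation.

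Hmox1 encodes haem oxygenase 1, the inducible enzyme that opens haem and frees its iron, and lies at chr8:75093621-75100589 on the plus strand. It was at 96.6, 165, 116 and 128 CPM in cultures F1, F2, M1 and M2, against 5.94 and 5.23 CPM in whole DG F1 and M2. Every culture was many times above both tissue samples. The means were 127 ± 28.8 against 5.58 ± 0.501 CPM, and the 22.6-fold difference (log2 4.50, SE 0.27, edgeR adjusted p = 2.06e-06) was the largest of the 10 genes. Hmox2, the constitutive isoform, chosen after its values were seen, was lower in cultures (55.8 against 99.2 CPM, log2 difference -0.83, edgeR adjusted p = 0.000359).

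Gpx4 was the 1 gene of the list whose groups overlapped. It encodes glutathione peroxidase 4, the selenoenzyme that reduces lipid hydroperoxides in membranes and restrains ferroptosis (chr10:80047166-80056439, plus strand). Its levels were 127, 117, 137 and 155 CPM in the cultures F1, F2, M1 and M2, against 142 and 134 CPM in whole DG F1 and M2. The means were 134 ± 16.3 against 138 ± 6.08 CPM (log2 difference -0.04, SE 0.14, edgeR adjusted p = 0.792), a difference smaller than the spread between cultures. With trends on gene length and GC content removed, the value was 0.62 (edgeR adjusted p = 0.00358); that setting moved the median of all genes by 0.35, and relative to this shift the value was 0.27.

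Prdx1, Txnrd1 and Srxn1, the thioredoxin-linked genes among the 10, were each higher in the cultures. Prdx1 encodes peroxiredoxin 1, an abundant cytosolic enzyme that reduces hydrogen peroxide (chr4:116685544-116700822, plus strand). It was at 1030, 1247, 1096 and 1202 CPM in cultures F1, F2, M1 and M2, against 109 and 104 CPM in whole DG F1 and M2, with no overlap and little spread within either group. The means were 1144 ± 98.7 against 106 ± 2.98 CPM, a 10.7-fold difference (log2 3.43, SE 0.15, edgeR adjusted p = 4.83e-07), and 3 sequence-matched copies held at most 1.79% of the counts.

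Txnrd1 encodes the cytosolic thioredoxin reductase, the selenoenzyme that recharges thioredoxin with NADPH (chr10:82833951-82897712, plus strand). Its levels were 483, 513, 432 and 518 CPM in cultures F1, F2, M1 and M2, against 87.8 and 97.4 CPM in whole DG F1 and M2, and every culture was above both tissue samples. The means were 487 ± 39.4 against 92.6 ± 6.77 CPM (log2 difference 2.39, SE 0.15, edgeR adjusted p = 2.12e-06). The gene overlaps Eid3, Gm38560 and Gm47073.

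Srxn1 encodes sulfiredoxin, which repairs peroxiredoxins that peroxide has over-oxidised (chr2:152105516-152111376, plus strand). It was at 138, 108, 119 and 182 CPM in cultures F1, F2, M1 and M2, against 76.7 and 68.9 CPM in whole DG F1 and M2. The lowest culture was above the higher tissue sample. The means were 137 ± 32.7 against 72.8 ± 5.50 CPM, a log2 value of 0.91 (SE 0.22, edgeR adjusted p = 0.00494, and 0.049996, just inside the threshold, without whole DG M2).

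Nqo1 encodes the quinone reductase that transfers 2 electrons to quinones, a widely used readout of NRF2 (chr8:107388225-107403206, minus strand). It was at 21.8, 34.4, 27.8 and 36.5 CPM in cultures F1, F2, M1 and M2, against 1.94 and 2.43 CPM in whole DG F1 and M2. The groups were well apart at a low level in both. The means were 30.1 ± 6.66 against 2.18 ± 0.351 CPM, a 13.7-fold difference (log2 3.78, SE 0.30, edgeR adjusted p = 1.00e-05).

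Gclm ran the other way. It encodes the modifier subunit of glutamate-cysteine ligase, which catalyses the limiting step of glutathione synthesis (chr3:122245557-122270732, plus strand), and was at 19.7, 21.2, 25.2 and 24.0 CPM in cultures F1, F2, M1 and M2, against 50.7 and 45.5 CPM in whole DG F1 and M2. Every culture was below both tissue samples. The means were 22.5 ± 2.55 against 48.1 ± 3.66 CPM, a log2 value of -1.10 (SE 0.16, edgeR adjusted p = 0.000280), and the gene overlaps Gm6061 and Gm17494. Gclc, the catalytic subunit of the same enzyme, was also lower, at 7.93, 5.55, 8.50 and 5.66 CPM in the cultures against 55.8 and 55.7 CPM in whole DG (log2 difference -3.01, SE 0.21, edgeR adjusted p = 4.24e-06). Transcripts of both subunits were thus lower in all 4 cultures than in either tissue sample, and the 2 groups also differed in library kit.

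The ARE is shown because Gclm and Nqo1, both known NRF2 targets, differed in opposite directions. RefSeq promoter windows on GRCm38.p6, from 250 bases before to 50 after each annotated start, were searched on both strands for the core TGACNNNGC, which reads GCNNNGTCA on the opposite strand. A window was matched for 9 of the 10 genes, all but Hmox1, and 4 of the 9 held the core, against 14.0% of 27025 genes and 12.4% of 32851 windows. All 4 matches read as GCNNNGTCA on the strand of the gene, and capitals mark the match. The stretches lie on the plus strand at chr3:122245403-122245452 for Gclm, where the match begins 134 bases before the start, chr10:82859094-82859143 for Txnrd1 (92 before its second annotated start), chr2:152105542-152105571 for Srxn1 (28 after the start) and chr4:116685446-116685495 for Prdx1 (133 before the start).
Gclm: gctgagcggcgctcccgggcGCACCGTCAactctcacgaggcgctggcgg
Txnrd1: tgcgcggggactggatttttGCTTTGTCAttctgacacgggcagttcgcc
Srxn1: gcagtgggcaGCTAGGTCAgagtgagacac
Prdx1: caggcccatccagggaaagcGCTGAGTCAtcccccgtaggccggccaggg
Of these 4 genes, Txnrd1, Srxn1 and Prdx1 were higher in cultures and Gclm was lower. The windows of Fth1, Ftl1, Tfrc, Gpx4 and Nqo1 do not hold these letters, which says nothing of elements elsewhere.

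The regulators of both systems were listed in full: of 8 genes, 3 were higher in cultures, 4 were lower and 1 was not called, with a median log2 difference of -0.13. Of all genes tested, 35.6% were higher and 41.7% lower. Nfe2l2, which encodes NRF2, was at 199, 181, 177 and 186 CPM in cultures F1, F2, M1 and M2 against 13.4 and 13.7 CPM in whole DG F1 and M2 (log2 difference 3.77, SE 0.14, edgeR adjusted p = 2.08e-07). Keap1, its inhibitor, averaged 90.5 ± 16.5 against 79.7 ± 2.14 CPM and its groups overlapped (log2 difference 0.18, SE 0.18, edgeR adjusted p = 0.376). With the length and GC trends removed its value was 1.30 (edgeR adjusted p = 0.000180), 0.95 relative to the shift of all genes.

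Mafg, a partner of NRF2 on DNA, averaged 41.9 ± 4.73 against 73.7 ± 12.0 CPM (log2 difference -0.82, SE 0.16, edgeR adjusted p = 0.00160). Bach1, the repressor that competes with NRF2, was low throughout, at 8.98 ± 2.32 against 14.8 ± 2.35 CPM (log2 difference -0.72, SE 0.26, edgeR adjusted p = 0.0338), and its call was lost without F1, F2 or M2 of the cultures or either whole DG sample (adjusted p = 0.0575 to 0.238), and with upper quartile scaling (0.102). Mafg turned to 0.060, or -0.29 relative to the shift of all genes, and Bach1 was at -0.36, or -0.70 relative to it, and not called, with the length and GC trends removed.

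The iron regulators also split. Aco1, which encodes iron regulatory protein 1, a cytosolic aconitase when it carries an iron-sulfur cluster, was at 224 ± 17.5 against 35.8 ± 0.352 CPM (log2 difference 2.65, SE 0.14, edgeR adjusted p = 1.02e-06). Ireb2, which encodes iron regulatory protein 2, was at 60.2 ± 4.73 against 81.4 ± 5.64 CPM (log2 difference -0.43, SE 0.13, edgeR adjusted p = 0.0141; 0.130 without whole DG F1 and 0.115 with upper quartile scaling). Its sign turned with the length and GC trends removed, to 0.40 (edgeR adjusted p = 0.0207), or 0.058 relative to the shift of all genes.

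Fbxl5, the iron-sensing subunit of the ligase that degrades iron regulatory proteins, averaged 48.7 ± 2.04 against 85.0 ± 4.82 CPM (log2 difference -0.80, SE 0.12, edgeR adjusted p = 0.000330), and was not called with the same trends removed (-0.16, or -0.50 relative to the shift of all genes, edgeR adjusted p = 0.321). Ncoa4, the receptor that delivers ferritin to lysosomes, averaged 111 ± 5.30 against 84.5 ± 4.75 CPM (log2 difference 0.40, SE 0.12, edgeR adjusted p = 0.0140). Its call was lost without whole DG F1 (0.0546) or M2 (0.128), and with DESeq2 (0.0618). Of the transcripts of the 2 iron regulatory proteins, Aco1 was thus well separated, while the sign of Ireb2 changed with the processing.

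**Figure D2:**
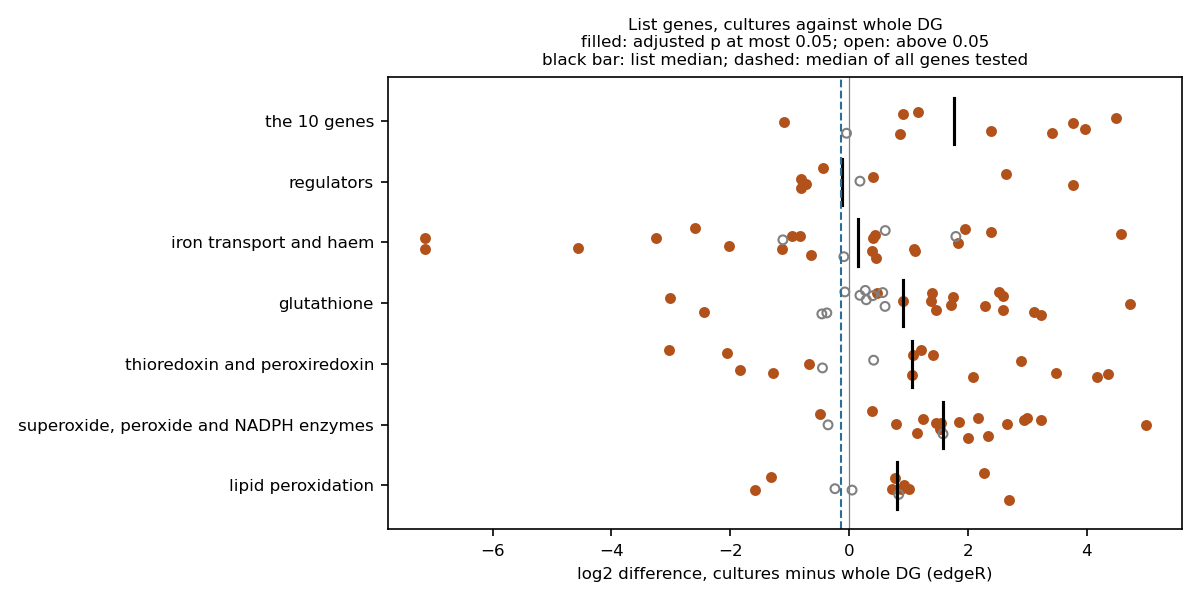
Each point is a gene of a list, placed by its log2 difference of cultures minus whole DG; filled points passed an adjusted p of 0.05, open ones did not, black bars are list medians and the dashed line is the median of all genes tested, -0.13. The 10 genes have a median of 1.77, and iron transport and haem genes spread to both sides with 10 higher and 10 lower of 24 tested. Of all genes tested, 35.6% were higher and 41.7% lower.

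Further genes of the same pathways were taken from 5 lists, drawn up with earlier results of these data known. The counts called in each list are a description, to be set beside all genes tested, of which 35.6% were higher and 41.7% lower. Iron transport and haem genes went both ways: of 24 tested, 10 were higher, 10 lower and 4 not called, with a median log2 difference of 0.15. Cp, which encodes the ferroxidase ceruloplasmin, had the largest rise in this list, at 189 ± 46.2 CPM in cultures against 7.86 ± 1.66 CPM in whole DG (log2 difference 4.58, SE 0.31, edgeR adjusted p = 3.60e-06). Slc25a28, which encodes the mitochondrial iron importer mitoferrin 2, had the largest fall among genes that reached 10 CPM in either group, at 2.35 ± 0.870 against 22.4 ± 2.47 CPM (log2 difference -3.24, SE 0.32, edgeR adjusted p = 3.01e-05). Pcbp1, an iron chaperone that loads ferritin and also binds RNA, was at 91.2 ± 11.1 against 178 ± 4.58 CPM (log2 difference -0.97, edgeR adjusted p = 0.000265).

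Trf, which encodes transferrin, the iron carrier that Tfrc takes up, differed mainly among cultures. It was at 361, 136, 1023 and 185 CPM in F1, F2, M1 and M2 against 134 and 111 CPM in whole DG F1 and M2. M1 stood far above the rest, and F2 was level with tissue. The log2 difference of 1.799 (SE 0.78) was not called (edgeR adjusted p = 0.0636), was 0.90 without M1 (0.0753), and passed the threshold without F2 (0.0179), without M2 (0.0393) or with upper quartile scaling (0.0487). It was also called in the 4 libraries named F1 or M2, at 1.19 (0.00964) and, with the shared name as a replicate block, at 1.12 (0.00209).

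Glutathione genes were mostly higher or not called: of 25 tested, 14 were higher, 2 lower and 9 not called, with a median log2 difference of 0.91. Gpx8, a peroxidase of the endoplasmic reticulum, was at 67.4 ± 8.56 against 2.53 ± 0.381 CPM (log2 difference 4.73, edgeR adjusted p = 5.92e-07). Slc3a2, the heavy chain shared by several amino acid transporters including the cystine importer, was at 526 ± 70.8 against 91.6 ± 3.14 CPM (log2 difference 2.52, edgeR adjusted p = 3.77e-06), and Gstm1, a glutathione S-transferase, at 598 ± 160 against 178 ± 13.4 CPM (log2 difference 1.75, edgeR adjusted p = 0.000456). The largest fall in this list was that of Gclc.

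Of 16 thioredoxin and peroxiredoxin genes 9 were higher, 5 lower and 2 not called, with a median log2 difference of 1.07. Txn1, which encodes thioredoxin, the substrate of Txnrd1, was at 765, 426, 1060 and 1068 CPM in cultures F1, F2, M1 and M2 against 41.7 and 39.5 CPM in whole DG F1 and M2 (log2 difference 4.35, SE 0.42, edgeR adjusted p = 2.87e-05). Prdx6 and Prdx2, further peroxiredoxins, had log2 values of 2.08 (edgeR adjusted p = 2.19e-05) and 1.07 (edgeR adjusted p = 0.000127). Txnip, which binds and inhibits thioredoxin, had the largest fall, at 2.91 ± 1.25 against 23.9 ± 1.67 CPM (log2 difference -3.04, edgeR adjusted p = 0.000134).

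Enzymes of superoxide and peroxide removal and of NADPH supply had the highest median of the 5 lists, 1.58, with 16 of 19 higher, 1 lower and 2 not called. The shares over all genes tested were 35.6% higher and 41.7% lower. Ephx1, the microsomal epoxide hydrolase, was at 565 ± 73.9 against 17.7 ± 0.478 CPM (log2 difference 4.999, edgeR adjusted p = 2.68e-07). Tkt, transketolase of the pentose phosphate pathway, differed by 1.54 (edgeR adjusted p = 5.15e-05). The 1 lower gene was Sod1, the copper-zinc superoxide dismutase, at 87.9 ± 10.5 against 124 ± 2.09 CPM (log2 difference -0.50, edgeR adjusted p = 0.0106), and its call was lost without whole DG F1 (0.0571) or M2 (0.0712), with upper quartile scaling (0.0630) and with length and GC trends removed (0.0591). Relative to the shift of all genes its value was -0.50 and -0.70 under these 2 settings.

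Of 12 genes of lipid peroxidation, 7 were higher, 2 lower and 3 not called, with a median of 0.81. Lpcat3, which inserts polyunsaturated chains into phospholipids, differed by 2.70 (edgeR adjusted p = 2.90e-06) and Vkorc1l1, a vitamin K epoxide reductase, by -1.58 (edgeR adjusted p = 3.38e-05). Scd1 and Acsl3, which serve the synthesis and activation of monounsaturated fatty acids, had values of 0.05 and -0.24 and were not called (edgeR adjusted p = 0.83 and 0.174).

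Female cultures were also compared with male cultures. None of the 10 was called, with adjusted p of 0.822 or more (edgeR, 2 female and 2 male cultures), 0 of the 10 had an unadjusted p under 0.05, and DESeq2 called 0 of the 10 and 53 genes in all. Over the 15140 genes tested, 4 were called (0.0264%), and 942 had an unadjusted p under 0.05. The size of the female minus male log2 difference was at most 0.30, reached by Srxn1 (-0.30, SE 0.24) and Fth1 (-0.30, SE 0.18). With 2 cultures per sex, a difference of this size was within the spread between cultures, which does not show that the sexes are alike.

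In the single-cell library, levels were summed UMIs per 10000 UMIs of a cluster, over 14912 cells in the authors' clusters 0 to 5, with exact Poisson intervals that cover counting error only. Cluster 5 held 1092 cells with a median of 4086 UMIs, and clusters 0 to 4 held 3925, 3297, 3260, 1910 and 1428 cells with medians of 3749, 3431, 4731, 4127 and 5271 UMIs. There is 1 library and the clusters were made from these genes, so there is no test across clusters, and a cluster cannot be told apart from a culture that may have given most of its cells. No barcode was repeated within the library. The proliferation marker Mki67 was at 0.114 UMIs per 10000 in cluster 5 and at 0.169, 1.83, 3.52, 0.441 and 5.41 in clusters 0 to 4, and its part in the levels below was not tested.

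Cluster 5 had the highest level of 9 of the 10 genes, all but Tfrc, and of all 6 that reached 1 UMI per 10000. Of all 1491 genes at that level, 20.9% were highest in cluster 5. The highest cluster was at least 1.5-fold above the lowest for 4 of the 6 genes, against 22.6% of all genes, and cluster 5 was at least 1.5-fold above the other clusters pooled for 3 of the 6, against 1.81%. The 9 genes were also highest in cluster 5 after each cell was thinned to 2000 UMIs, as a mean over cells, and without cells above 20% mitochondrial UMIs. Cluster 5 was singled out after its values were seen, and these shares are a description.

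**Figure D3:**
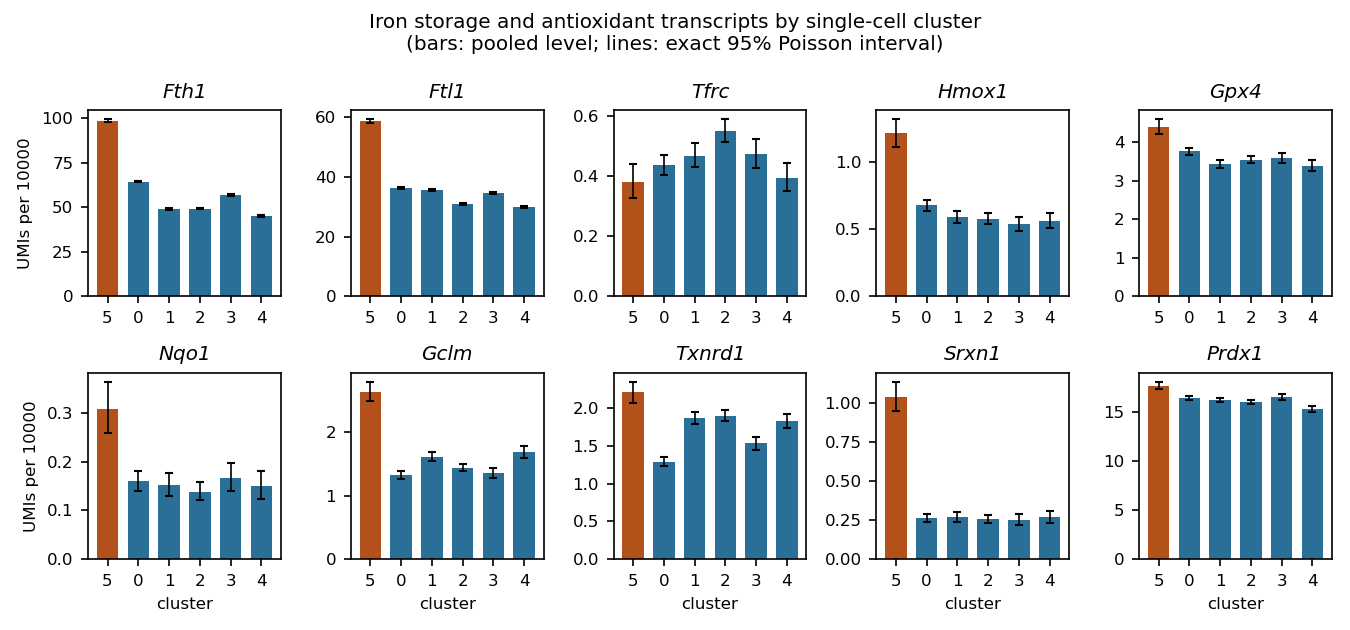
Bars are the pooled level of each gene in UMIs per 10000 in cluster 5 (orange) and clusters 0 to 4 (blue), with exact 95% Poisson intervals. Cluster 5 is the highest bar for 9 genes, from Srxn1 at 1.04 against 0.249 to 0.268 down to Prdx1 at 17.7 against 15.3 to 16.6, and the lowest for Tfrc.

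The 2 ferritin transcripts were among the most abundant in these cells, Fth1 at rank 12 and Ftl1 at rank 27 of all genes. Fth1 was at 98.7 UMIs per 10000 in cluster 5 (interval 97.7 to 99.6) and at 64.4, 49.1, 49.3, 57.0 and 45.3 in clusters 0 to 4. Ftl1 was at 58.6 in cluster 5 (57.9 to 59.3) and at 36.2, 35.5, 30.9, 34.6 and 29.9 in clusters 0 to 4. Both were highest in cluster 5 and lowest in cluster 4. Among clusters 0 to 4, Fth1 was highest in clusters 0 and 3, those with the lowest Mki67 of the 5. Ftl1 was highest in clusters 0 and 1 of these, and a link with Mki67 was not tested. The ratio of Fth1 to Ftl1 UMIs was 1.68 in cluster 5 and 1.78, 1.38, 1.60, 1.65 and 1.51 in clusters 0 to 4, so the chains differed less from each other across clusters than between cultures and tissue. These UMI ratios come from 3′ ends and are not on the scale of the bulk ratios. Fth1 had more UMIs than Ftl1 in every cluster, whereas by the 2 lengths used Ftl1 was the more abundant in every bulk culture.

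Tfrc did not share the high level of ferritin in cluster 5. It was at 0.381 UMIs per 10000 there (0.326 to 0.442), and at 0.437, 0.468, 0.552, 0.473 and 0.395 in clusters 0 to 4. It was highest in cluster 2, and the intervals of cluster 5 overlap those of clusters 0, 1, 3 and 4. Hmox1 was at 1.21 (1.12 to 1.32) in cluster 5 and between 0.537 and 0.678 in clusters 0 to 4, 2.03 times the pooled level of the other clusters, and the other 5 clusters lay close together.

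Srxn1 had the largest ratio of cluster 5 to the rest. It was at 1.04 UMIs per 10000 in cluster 5 (0.946 to 1.13) and at 0.261, 0.268, 0.258, 0.249 and 0.267 in clusters 0 to 4, a ratio of 3.98 to the others pooled, and it was seen in 30.4% of the cells of cluster 5 and in 8.86% to 12.5% of the cells of the others. After thinning to 2000 UMIs the shares were 15.5% and 4.03% to 5.67%. Clusters 0 to 4 differed by less than their counting error. No cluster was known to lack the gene, so no background share from free RNA could be set beside these shares.

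Gclm, which was lower in cultures than in tissue, was higher in cluster 5 than in any other, at 2.65 (2.50 to 2.80) UMIs per 10000 against 1.33, 1.62, 1.45, 1.35 and 1.69 in clusters 0 to 4. Nqo1 was sparse, at 0.309 (0.260 to 0.364) in cluster 5 and 0.139 to 0.166 in the others, 2.03 times the others pooled. Txnrd1 was at 2.21 (2.07 to 2.35) in cluster 5 against 1.29, 1.87, 1.90, 1.53 and 1.82 in clusters 0 to 4, which gives it the widest spread among clusters 0 to 4, with the lowest level in cluster 0. The order of clusters below cluster 5 was therefore not shared: cluster 0 was second for Fth1, Ftl1 and Hmox1 and last for Txnrd1 and Gclm.

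Gpx4 and Prdx1 varied least. Gpx4 was at 4.40 (4.21 to 4.60) in cluster 5 against 3.76, 3.44, 3.55, 3.59 and 3.39 in clusters 0 to 4, and Prdx1 at 17.7 (17.4 to 18.1) against 16.5, 16.3, 16.1, 16.6 and 15.3. Their ratios of cluster 5 to the others pooled were 1.23 and 1.10, beside a median of 0.944 over all 1491 genes.

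The gene nearest in profile over the 6 clusters, by root mean square difference of centred log2 levels among genes at 1 UMI per 10000 or more, was named for each of the 6 genes. It was Mgst1 for Fth1 (difference 0.0580), Serpinh1 for Ftl1 (0.0549), Msn for Gpx4 (0.0362), Eprs for Gclm (0.0530), Gars for Txnrd1 (0.110) and Rpl37a for Prdx1 (0.0189). Mgst1, a microsomal glutathione transferase, was at 3.27 UMIs per 10000 in cluster 5 and 2.27, 1.69, 1.63, 1.91 and 1.68 in clusters 0 to 4. Eprs and Gars encode aminoacyl-tRNA synthetases, and Eprs was at 3.60 in cluster 5 against 1.66 to 2.14 in the others. With 6 points a profile, the nearest gene is a description.

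Among the other lists, genes at 1 UMI per 10000 or more were few. Glutathione genes held 4 of 9 at least 1.5-fold higher in cluster 5, against 1.81% of all 1491 genes at that level. They were Slc3a2 (1.82 times the other clusters pooled), Esd (1.82), Mgst1 (1.76) and Gstm1 (1.57). Slc7a11, the cystine importer that pairs with Slc3a2, chosen after its values were seen, was below that level overall (0.274 UMIs per 10000) with a ratio of 5.42. Prdx4, a peroxiredoxin of the endoplasmic reticulum, and Idh2, the mitochondrial NADP-dependent isocitrate dehydrogenase, were lower in cluster 5, with ratios of 0.550 and 0.564, the 1 such gene of 6 and of 7 in their lists; 7.65% of all genes were at least 1.5-fold lower there. The regulator Nfe2l2 had a ratio of 0.906, and 0 of 3 iron transport genes and 0 of 2 lipid genes passed 1.5-fold either way.

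**Figure D4:**
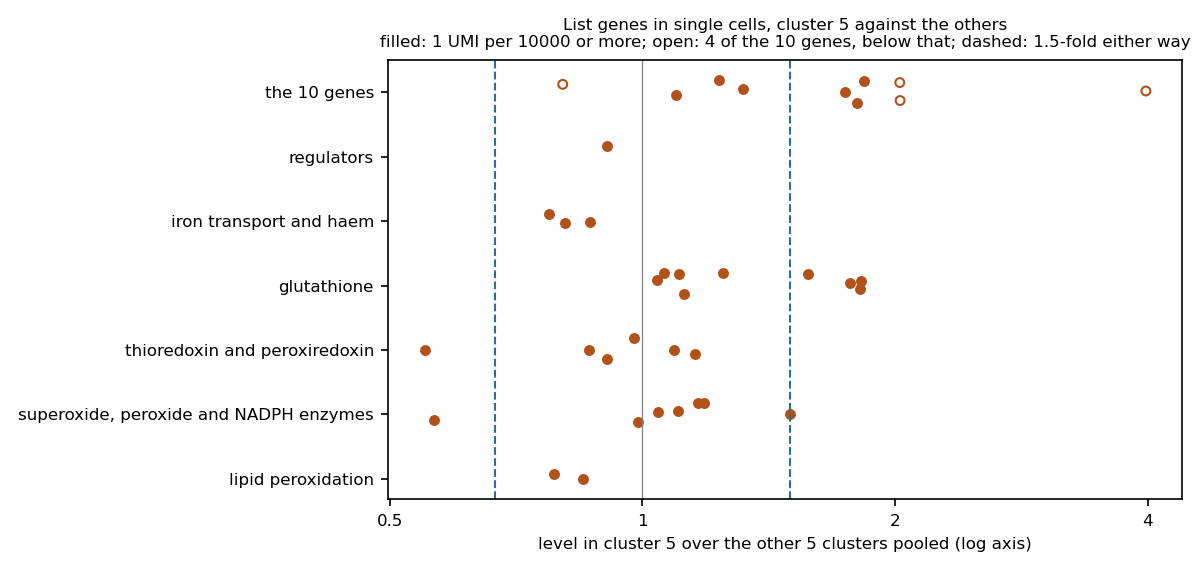
Each point is the level of a gene in cluster 5 over its pooled level in clusters 0 to 4, on a log axis, by list; filled points are genes at 1 UMI per 10000 or more, open points are the 4 of the 10 genes below that level, and dashed lines mark 1.5-fold either way. Iron storage and antioxidant genes and glutathione genes reach past the upper line, with Srxn1 farthest at 3.98.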

How the data were processed

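Bulk values are whole-number counts per gene and library as deposited by the authors, not normalized. Per the submitters' processing notes, CASAVA 1.8.2, HISAT2 2.0.6, Subread and featureCounts were used, with the build given as GRCh38 although the symbols are mouse symbols. Options for strand and shared reads: not given in the sources used here. Per the labels' protocols, cultures were prepared with the Clontech SMART/Seq HT kit and whole DG with NEBNext Ultra II Directional. For single cells the authors deposited natural log values, ln(1 + UMIs per 10000 in a cell), with their own cluster numbers. Cell Ranger 3.1.0 and Seurat 3.1.0 stand in the submitters' processing notes.

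Counts were tested with edgeR 4.0.16 (quasi-likelihood, robust, TMM, default filter, Benjamini-Hochberg adjustment, threshold 0.05) in R 4.3.3, over 6 libraries with group as the only term, and over the 4 cultures for sex. DESeq2 1.42.0 was an alternative. The scripts were tested on simulated data. Replicates were separate cultures or animals per the labels, and the p-values rest on the spread among these. Positions, exon lengths and UTRs come from GENCODE M21 on GRCm38, and promoters from RefSeq on GRCm38.p6. Of 50600 entries, 47477 matched a gene name there. Copies were transcripts matched by blastn 2.17.0 at 90% identity over 50% of the coding sequence of the gene. UMIs were recovered from the log values, with all 26000272 nonzero entries (100%) within 0.01 of a whole number. Beyond the cells as deposited, which each held at least 2001 UMIs, no filter on cells was applied for the main levels. No screen for doublets was run.

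The genes and lists were chosen with earlier results of these data known. The text names the 10 genes, 8 regulators, from each of 5 lists the 2 most abundant genes and the largest rise and fall at 10 CPM or more with separated groups, and the nearest gene by cluster profile. Alternatives were other scalings, filters, a fold threshold, whole DG thinned to the mean total of the cultures, copies added, length and GC trends removed, and leaving out each library.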

Additional observations from a re-analysis of the deposited data

Results flagged for a closer look

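Among the 37 named genes, Lpcat3 was low in culture M2, at 88.5 CPM against 113.8 to 118.4 CPM in the other 3 cultures, a gap that took 0.845 of the range of the 4. About 1 in 20 groups is marked this way by chance. Lpcat3 inserts polyunsaturated fatty acids into membrane phospholipids, the substrates of lipid peroxidation, and M2 was still above both whole DG samples (16.98 and 16.48 CPM).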

How the results depend on the processing

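The count of genes called between cultures and whole DG was 13976, stayed within 1.5 times under every alternative run (9443 with a fold above 2, otherwise 11815 to 15459), and was 11815 to 14038 when 1 library was left out. Leaving out a whole DG sample, or a culture in the comparison of sexes, leaves a group of 1, which is then assumed to vary like the other group. F1 and M2 name a sample in both groups, but the labels do not say that a name marks 1 animal. The deviations of same-named samples correlated by 0.0446 and 0.0604. With 2 whole DG samples the deviations of 1 mirror those of the other, so these correlations cannot show whether a name marks 1 animal. The fit with a replicate block called 13677 genes and changed no call of the 10 genes. All 9 calls among the 10 were kept under each alternative but the test for a fold above 2, under which Fth1, Tfrc, Gclm and Srxn1 were not called (edgeR adjusted p = 0.730, 0.196, 0.192 and 0.564). Gpx4, not called in the main fit, changed sign to 0.065 (libraries named F1 or M2), 0.058 (replicate block), 0.00076 (stricter filter) and 0.14 (upper quartile), without a call. With length and GC trends removed it was called higher, at 0.62 (edgeR adjusted p = 0.00358). Gpx4 ranged from -0.11 to 0.023 with 1 library left out. Scd1 turned to -0.052 and -0.045 with the size factors of DESeq2 and its test, and ranged from -0.075 to 0.18 with 1 library left out. Mafg and Ireb2 turned to 0.060 and 0.40 with length and GC trends removed. The median of all genes was -0.13, and 0.05, -0.23 and 0.22 under upper quartile, DESeq2 factors and length and GC correction. The cause of these changes was not tested.

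Between sexes, 4 genes were called, 53 by DESeq2, 273 with no filter, and 3 to 81 when 1 culture was left out (81 without F1, 13 without F2). Leaving out 1 culture gave ranges of -0.59 to 0.35 for Ftl1, -0.60 to 0.29 for Tfrc, -0.34 to 0.42 for Hmox1, -0.56 to 0.085 for Nqo1, -0.072 to 0.19 for Txnrd1, -0.58 to 0.037 for Srxn1 and -0.16 to 0.10 for Prdx1, and none was called. In single cells, of the 6 genes at 1 UMI per 10000 or more, 4 spanned 1.5-fold and 1 spanned 2-fold (Fth1). Thinning moved 16 of 60 gene and cluster levels beyond their counting interval (0.821 to 1.10 times the level), averaging over cells 7, and removing cells of high mitochondrial share 0.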
